A study of Mus musculus with 23 samples.

Results

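Igf1, Csf1 and Dkk2 encode 3 secreted signalling proteins: insulin-like growth factor 1, colony-stimulating factor 1 and the Wnt modulator Dickkopf 2. They were picked from the array by annotated symbol, as 3 of 19505 genes with a symbol, which gave 1 probe set for each gene (TC1000001066.mm.2 for Igf1, TC0300002718.mm.2 for Csf1 and TC0300001342.mm.2 for Dkk2), or 3 of 22203 probe sets. All 3 are followed here over 23 samples of mouse microglia in 6 groups. All samples were CD45+ CD11b+ cells of cortex and hippocampus. The groups were 4 samples from APPswlnd mice (APP) at 12 months, sorted further for Clec7a as active microglia, 4 samples from P301S PS19 mice (TAU) at 9 months with the same Clec7a sort, 4 from C57BL6 wild-type mice (WT) at 12 months, and 3 APP, 4 TAU and 4 WT samples at 3 months. APPswlnd mice carry a mutant human amyloid precursor protein transgene, and PS19 mice carry mutant human tau, under promoters that the labels do not name. No Clec7a sort is named for WT or for any group at 3 months, so genotype, the pathology that comes with it and the sort cannot be told apart in the comparisons of gated cells with WT. The gated TAU cells are 9 months old by their age field, but 12 months by their titles, so age adds to that confounding. The labels call the replicates biological without saying that each was a separate animal, and the p-values therefore measure the spread between these samples. The labels do not state sex, and the mean log2 signal of 3 Y-linked genes ranged from 4.16 to 7.13 in gated APP, from 4.5 to 6.78 in gated TAU and from 6.06 to 7.31 in aged WT samples. At 3 months it ranged from 4.14 to 4.62 in APP, from 4.0 to 6.88 in TAU and from 6.98 to 7.46 in WT samples, so that young APP and young WT samples did not overlap.

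IGF1 signals through the receptor tyrosine kinase Igf1r, and a family of IGF-binding proteins (Igfbp1 to Igfbp7) holds it in the extracellular space. CSF1 and the unrelated cytokine IL-34 share the receptor Csf1r, on which adult microglia depend for survival. DKK2 binds the Wnt co-receptors Lrp5 and Lrp6 and, together with Kremen receptors, can keep them from transmitting a Wnt signal.

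The sequences around the start sites are shown because the 3 genes had different patterns over the same groups. They come from RefSeq on build GRCm38.p6 and run from 250 bases before the start to 50 bases after it, 5′ to 3′ on the strand of the gene. Capitals mark matches to 6 short motifs, each searched on both strands. They were the core GAGGAA of PU.1, the factor that sets myeloid identity, the AP-1 site TGANTCA, which stress-responsive factors bind, and the E-box CACGTG of basic helix-loop-helix factors. The others were TATAAA as the core of a promoter box, TTGCNNAA as the site of C/EBP factors, and ATCAAAG as the site of the Wnt effectors TCF and LEF.
Igf1, chr10:87860861-87861160, plus strand: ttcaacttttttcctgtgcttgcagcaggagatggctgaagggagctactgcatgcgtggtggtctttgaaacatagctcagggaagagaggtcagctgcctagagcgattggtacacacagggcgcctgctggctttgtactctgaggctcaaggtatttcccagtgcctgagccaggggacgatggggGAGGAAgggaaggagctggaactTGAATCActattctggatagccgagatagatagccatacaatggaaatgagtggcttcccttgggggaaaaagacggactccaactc
Csf1, chr3:107760420-107760719, minus strand: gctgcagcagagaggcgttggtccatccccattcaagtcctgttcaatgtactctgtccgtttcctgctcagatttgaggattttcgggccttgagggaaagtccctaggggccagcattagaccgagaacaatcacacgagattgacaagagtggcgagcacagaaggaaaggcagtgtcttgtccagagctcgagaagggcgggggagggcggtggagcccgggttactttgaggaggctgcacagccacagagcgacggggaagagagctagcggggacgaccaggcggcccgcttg
Dkk2, chr3:132085042-132085341, plus strand: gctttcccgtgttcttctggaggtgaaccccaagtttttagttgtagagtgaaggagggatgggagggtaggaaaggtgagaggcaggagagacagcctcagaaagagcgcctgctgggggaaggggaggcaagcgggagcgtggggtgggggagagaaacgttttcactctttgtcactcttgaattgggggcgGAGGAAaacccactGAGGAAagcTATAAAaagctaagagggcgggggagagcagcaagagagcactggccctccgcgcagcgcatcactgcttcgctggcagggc
The Igf1 window held 1 PU.1 core at -60 and 1 AP-1 match at -37, counted from the start site. The Dkk2 window held PU.1 cores at -55 and -41 and a TATAAA box at -32, while none of the 6 motifs matched in the Csf1 window. Of 32851 promoter windows of the same length, 28.3% held the PU.1 core, 7.81% the AP-1 site and 13.6% the TATAAA box. The windows had 52.3% G and C for Igf1, 58.7% for Csf1 and 57.7% for Dkk2, against 53.8% over all windows. The listed Igf1 start lies 2846 bases inside the outermost annotated start of a gene with 21 RefSeq transcripts, and the array does not say which start the cells used.

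All signals are log2 values made by the authors with RMA, and a background level was set in each group at the 95th percentile of 1465 probe sets for chemosensory receptors, a class taken as largely silent in brain cells. That level lay between 7.73 and 8.11 in the 6 groups. In bulk samples such as these, fewer cells of a type and less RNA per cell cannot be told apart. The sort gene Ptprc (CD45) was at 15.44, 16.06 and 15.58 in gated APP, gated TAU and aged WT cells. The other sort gene, Itgam (CD11b), was lower in the gated groups, at 14.02, 13.68 and 14.83. Its call in gated TAU against aged WT cells was kept in all 8 fits that left out 1 sample (-1.23 to -1.07). The call in gated APP cells was lost in 6 of 8 such fits. The microglial receptor P2ry12 was at 17.03, 16.88 and 18.30 in gated APP, gated TAU and aged WT cells. P2ry12 was among 9 of 16 genes of homeostatic microglia called lower in gated APP and 8 of 16 called lower in gated TAU than in aged WT cells, against 3.48% and 3.67% of all probe sets, with none higher and all 16 above background. Of 18 measured genes of active microglia, 17 were called higher in each gated group than in aged WT cells, against 5.6% of all probe sets for APP and 5.09% for TAU, with median log2 differences of 3.21 for APP and 2.63 for TAU. Among them were the lipid carrier Apoe (18.09, 17.84 and 10.61 in gated APP, gated TAU and aged WT cells) and the protease inhibitor Cst7 (17.10, 16.18 and 9.25). Clec7a itself was not analysed here. Aged WT samples 2 and 4 lay apart from the rest on principal component 2 (20.6% of the variance), with scores of 86.2 and 73.0 against -51.6 to 24.8 in the other 21 samples. Without them the log2 differences from aged WT were 7.82, 3.27 and 2.81 for Igf1, Csf1 and Dkk2 in gated APP cells and 4.16, 3.35 and 0.56 in gated TAU cells, and none of these calls changed.

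**Figure D1:**
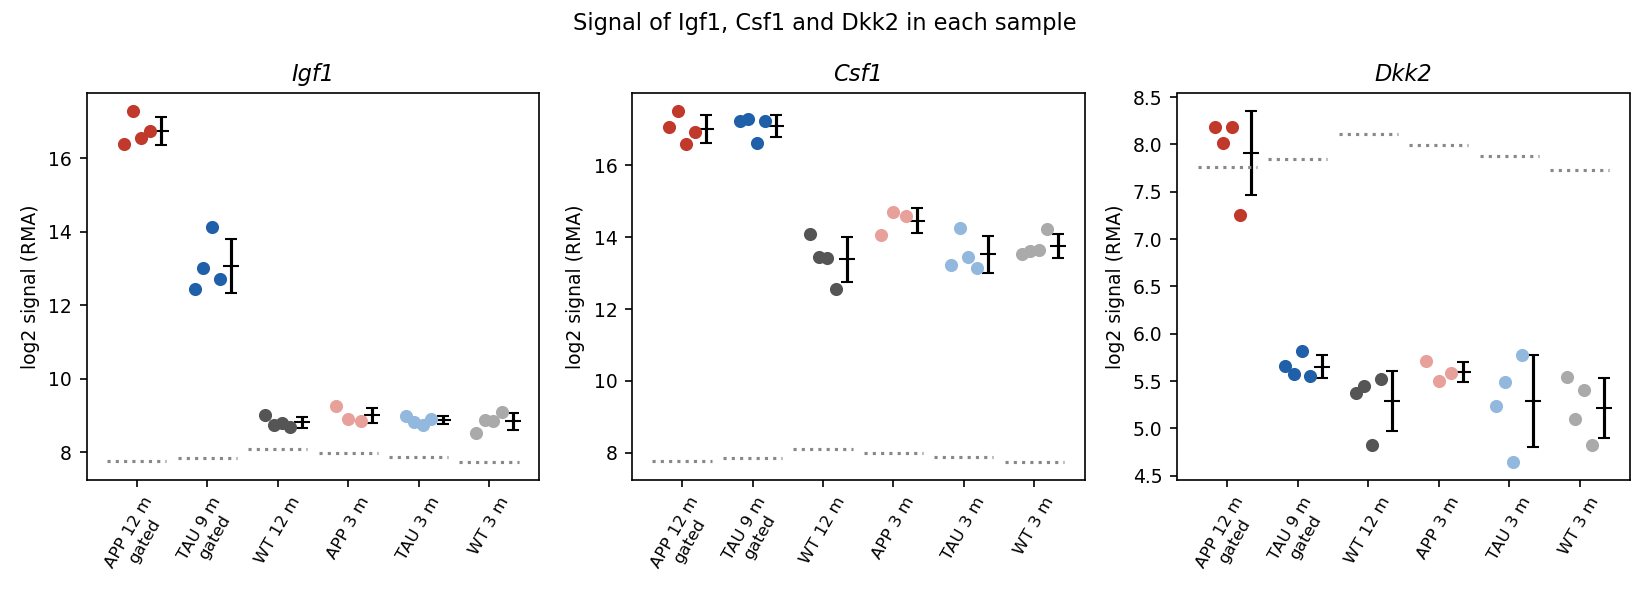
Log2 signal (RMA) of Igf1, Csf1 and Dkk2 in every sample, by group; each point is 1 sample, bars are the mean ± SD, and dotted lines are the background level of the group. Igf1 stands in 3 tiers, Csf1 is high in both gated groups, and Dkk2 leaves its low level only in gated APP cells, at 7.91 ± 0.44.

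Igf1, the growth factor, was graded between the models. Its log2 signals were 16.39, 17.28, 16.54 and 16.74 in gated APP samples. The gated TAU samples had 12.43, 13.02, 14.12 and 12.71, and aged WT samples had 9.03, 8.76, 8.80 and 8.68. The 3 sets did not overlap, and the lowest gated APP sample lay above the highest gated TAU sample. Such a gap was seen for 6.72% of probe sets in gated APP over aged WT, for 6.38% in gated TAU over aged WT and for 2.56% in gated APP over gated TAU cells. At 3 months the values were 9.25, 8.92 and 8.86 in APP, 9.00, 8.84, 8.74 and 8.91 in TAU, and 8.54, 8.88, 8.85 and 9.11 in WT. These 11 young samples and the aged WT samples shared 1 narrow range of 8.54 to 9.25 with a median of 8.86, above background, while the 8 gated samples spanned 12.43 to 17.28.

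In gated TAU cells Igf1 was 4.25 ± 0.26 log2 units (SE) above aged WT, or 19.1-fold with a 95% interval of 13.2 to 27.6 (limma, adjusted p = 8.35e-11). It had the 20th highest log2 difference of that comparison, in which 5.09% of probe sets were called higher. The difference in gated APP cells was 7.92 ± 0.26 (adjusted p = 1.36e-15), where 5.6% of probe sets were called higher, and was exceeded by 1 probe set. Both comparisons use the same 4 aged WT samples. Set directly against gated TAU cells, gated APP cells had 3.67 ± 0.26 log2 units more, a 12.7-fold difference (interval 8.78 to 18.4, adjusted p = 8.43e-09). Only 0.626% of probe sets were called higher in that comparison, and Igf1 was 3rd both by size and by p. The exact two-sided permutation p was 0.0286 for each of these 3 pairs of groups, the smallest that 4 against 4 samples allow.

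Comparisons within a strain gave similar sizes for Igf1. In APP and TAU they set older, Clec7a-sorted cells against young cells with no such sort named, so age and sort cannot be told apart. Gated APP cells were 7.73 ± 0.28 above APP cells at 3 months (212-fold, limma adjusted p = 1.22e-14), with 6.19% of probe sets called higher. Gated TAU cells were 4.2 ± 0.26 above TAU cells at 3 months (18.3-fold, adjusted p = 8.43e-11), with 6.67% called higher. Ungated WT cells had 8.82 ± 0.15 at 12 months and 8.85 ± 0.23 at 3 months (SD, n = 4 each), a difference of -0.03 (adjusted p = 0.986, interval -0.56 to 0.51). The change in APP exceeded that in WT by 7.75 and the change in TAU exceeded that in WT by 4.22, terms in which 2.82% and 2.6% of probe sets were called higher (adjusted p = 8.25e-12 and 8.83e-08). The change in APP exceeded that in TAU by 3.53 ± 0.38 log2 units (adjusted p = 1.85e-05), a term for which 0.167% of probe sets were called higher. At 3 months Igf1 differed from WT by 0.17 in APP and by 0.03 in TAU, and neither passed the test (adjusted p = 1 and 0.998), nor did any probe set in either comparison (0% in limma, with 648 in APP and 922 in TAU at an unadjusted p under 0.05). From high to low, gated APP and gated TAU cells came first, and the other 4 groups followed with overlapping samples and adjusted p from 0.986 to 1 between neighbours.

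Csf1, the ligand of Csf1r, was high in the gated cells of both models. Its log2 signals were 17.07, 17.51, 16.58 and 16.92 in gated APP samples. In gated TAU samples they were 17.22, 17.29, 16.63 and 17.24, against 14.08, 13.45, 13.42 and 12.57 in aged WT samples. The gated groups overlapped each other, and each lay above every WT sample. At 3 months Csf1 was at 14.06, 14.71 and 14.60 in APP, at 13.23, 14.26, 13.45 and 13.15 in TAU, and at 13.53, 13.61, 13.64 and 14.24 in WT. The 15 ungated samples thus spanned 12.57 to 14.71, and the 8 gated samples stood at 16.58 to 17.51.

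Csf1 was 3.64 ± 0.29 log2 units above aged WT in gated APP cells (12.5-fold, interval 8.22 to 18.9, limma adjusted p = 5.94e-09). In gated TAU cells it was 3.71 ± 0.29 above the same WT samples (13.1-fold, interval 8.66 to 19.9, adjusted p = 6.38e-09). It ranked 45th and 31st by log2 difference in these comparisons. Gated APP minus gated TAU was -0.07 ± 0.29, with an interval of -0.68 to 0.53 and an adjusted p of 0.985, so that a difference of either sign within those bounds was not resolved. Against their own strain at 3 months, gated APP cells were 2.56 ± 0.31 higher (5.91-fold, adjusted p = 4.00e-06) and gated TAU cells 3.57 ± 0.29 higher (11.9-fold, adjusted p = 1.02e-08).

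Young APP cells had the highest ungated level of Csf1. APP cells at 3 months averaged 14.46 ± 0.35 (SD, n = 3), against 13.76 ± 0.33 (n = 4) in WT cells of that age. The difference of 0.70 ± 0.31 had an unadjusted p of 0.0351 in limma and an adjusted p of 1 in a comparison without any call (0%). The groups overlapped, and the exact permutation p was 0.114 where 3 against 4 samples allow 0.0571. Y-linked signal separated the same young APP and WT samples, so that genotype and whatever sets that signal cannot be told apart here, and a covariate for it gave a difference of 0.96 with no call. The change in APP minus that in TAU was -1.01 ± 0.43 (interval -1.89 to -0.13) with an adjusted p of 0.882 in limma. TAU at 3 months differed from young WT by -0.23 (adjusted p = 0.998), and aged WT differed from young WT by -0.37 (adjusted p = 0.699), where 0.036% of probe sets were called. In order of level the gated TAU and gated APP cells shared the top, followed by APP, WT and TAU at 3 months and WT at 12 months. Among these last 4 groups no neighbours were called and their samples overlapped, though the interval of young APP minus young WT was 0.05 to 1.35.

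Dkk2, the Wnt modulator, was called higher in gated APP cells and not in gated TAU cells, and its signal was low throughout. Its log2 signals were 8.18, 8.02, 8.18 and 7.25 in gated APP samples. They were 5.66, 5.57, 5.82 and 5.55 in gated TAU samples, and 5.37, 5.45, 4.82 and 5.52 in aged WT samples. At 3 months the ranges were 5.50 to 5.71 in APP, 4.64 to 5.78 in TAU and 4.82 to 5.54 in WT. All 4 gated APP samples were above the other 19 samples, but their mean of 7.91 was barely above the background level of 7.77 in that group, and the sample at 7.25 was below it. All other groups were at background, so differences of Dkk2 are given on the log2 scale without a fold.

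Gated APP cells exceeded aged WT cells in Dkk2 by 2.62 ± 0.24 (interval 2.13 to 3.11, limma adjusted p = 4.72e-08). They exceeded gated TAU cells by 2.26 ± 0.24 (adjusted p = 2.97e-06) and APP cells at 3 months by 2.31 ± 0.25 (adjusted p = 1.02e-06). Gated TAU minus aged WT was 0.36 ± 0.24, with an interval of -0.13 to 0.85 and an adjusted p of 0.400; the groups did not overlap, by 0.03, as was so for 6.38% of probe sets in that direction. The change in APP was larger than that in TAU by 1.95 ± 0.35 (adjusted p = 0.00854), and larger than that in WT by 2.24 ± 0.35 (adjusted p = 0.000268). The differences at 3 months were 0.38 in APP and 0.07 in TAU (adjusted p = 1 and 0.998). Behind gated APP cells, the other 5 groups had means of 5.21 to 5.65 and overlapped their neighbours in the order.

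**Figure D2:**
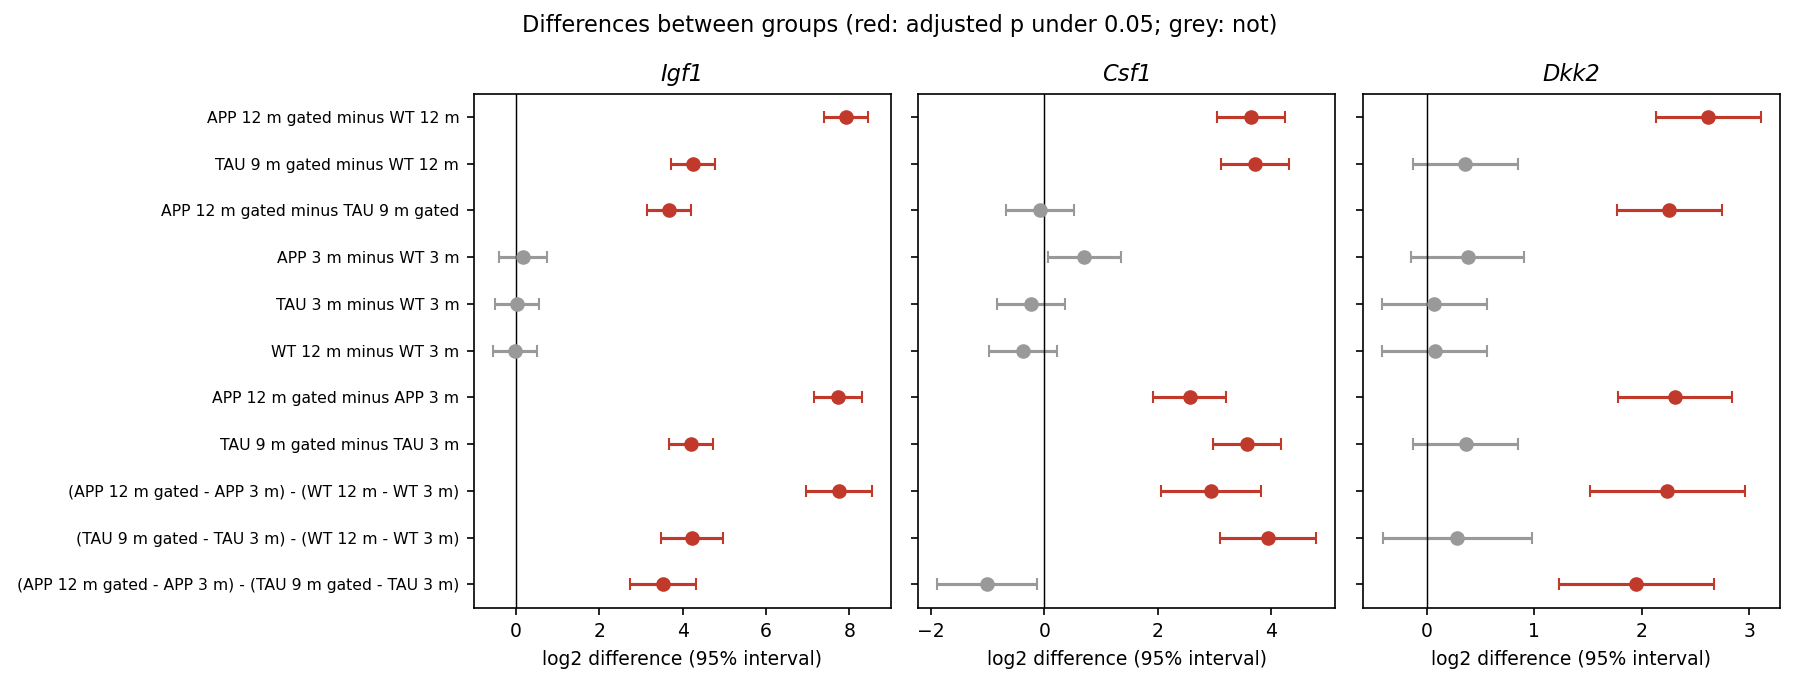
Log2 differences of Igf1, Csf1 and Dkk2 between groups and their differences of change, with 95% intervals from the fit over all 23 samples; red points had an adjusted p under 0.05. Gated APP minus gated TAU is 3.67 for Igf1, -0.07 for Csf1 and 2.26 for Dkk2.

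The 3 genes were thus called higher together in gated APP cells, Igf1 and Csf1 in gated TAU cells, and Igf1 and Dkk2 in gated APP over gated TAU cells. Their centred profiles over the 6 groups were unlike each other, with root mean square differences of 1.71 between Igf1 and Csf1, 2.2 between Igf1 and Dkk2, and 1.13 between Csf1 and Dkk2. By the same measure the 5 genes nearest to Igf1 were Etl4 (0.711), the fatty acid-binding proteins Fabp5 (0.742) and Fabp3 (0.845), Cd200r4 (0.766) and the transmembrane glycoprotein Gpnmb (0.994). Fabp5, for example, had group means of 13.47, 11.22 and 7.68 in gated APP, gated TAU and aged WT cells. Nearest to Csf1 were the olfactory receptor gene Olfr111 (0.283), Glipr1 (0.302), Vat1 (0.306), AI504432 (0.332) and the prostaglandin E2 receptor Ptger4 (0.340). Vat1 had 11.86, 11.87 and 8.27 in the same 3 groups. Likeness over 6 means describes these samples, and a small number is easier to reach for a gene of small range.

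Nearest to Dkk2 were Gfap (0.121), the cell fusion protein gene Dcstamp (0.142), Nexn (0.197), the RNA-editing enzyme Adarb1 (0.198) and Plp2 (0.208). Adarb1 was well above background, at 12.11 in gated APP cells, 9.49 in gated TAU cells and 9.20 in aged WT cells. Gfap, which encodes the intermediate filament of astrocytes, had 8.17, 7, 7.39 and 9.08 in gated APP samples, against 5.57 to 6.03 in gated TAU and 5.43 to 5.62 in aged WT samples. It was 2.43 above aged WT and 2.02 above gated TAU cells (limma adjusted p = 1.31e-05 and 0.000861); both of those groups were at background and the gated APP mean of 7.91 was near it, so no fold is given. In the same gated APP samples Dkk2 was at 8.18, 8.02, 8.18 and 7.25, and a link between Gfap and Dkk2 was not tested. Of the 9 astrocyte markers measured, Gfap alone was called higher in gated APP cells; Aqp4, Slc1a3, Gja1, Aldh1l1 and Sox9 were at background, and the log2 of the summed signal of the list was 10.98 to 12.63 in gated APP, 10.85 to 12.85 in gated TAU and 11.56 to 13.14 in aged WT samples.

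**Figure D3:**
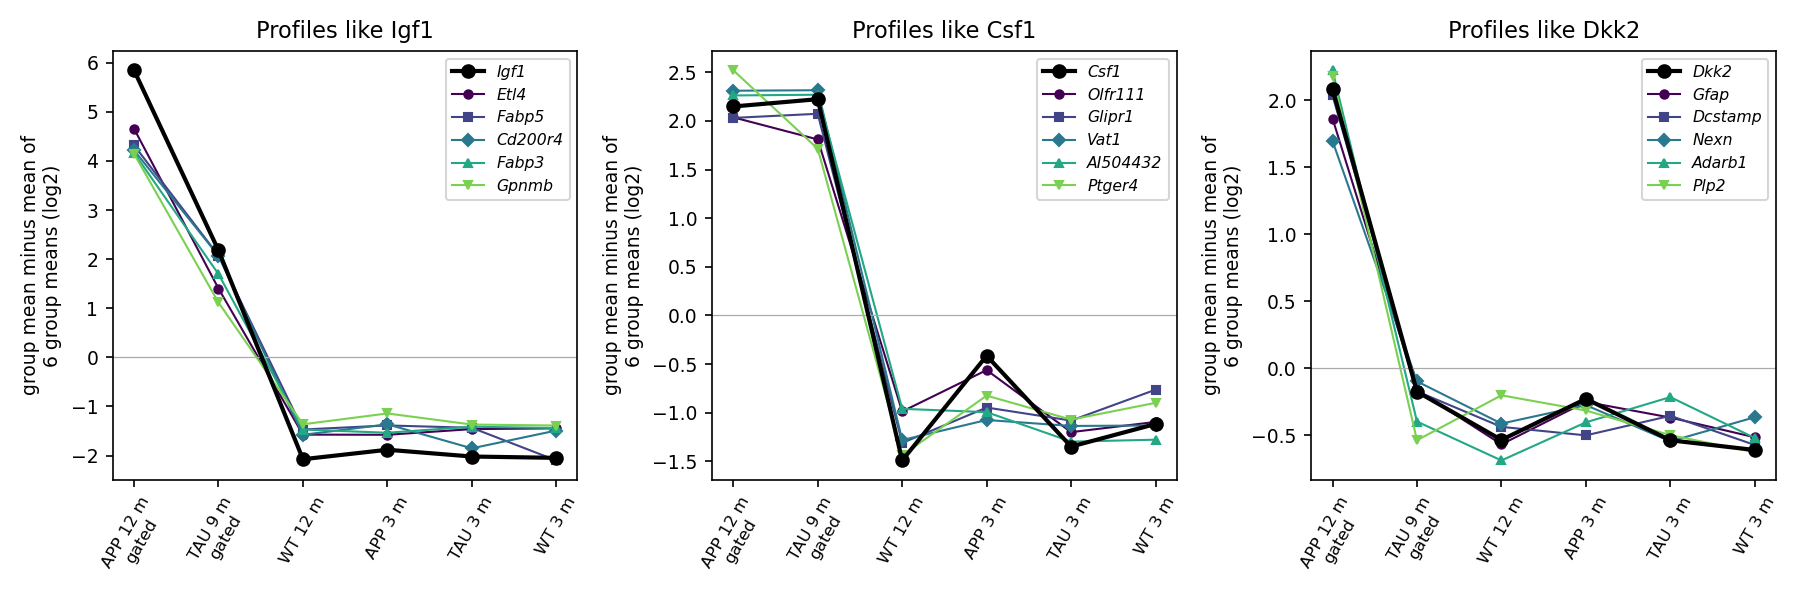
Group means of each gene and of the 5 genes most like it, each minus the mean of its 6 group means (log2). Each line is 1 gene over the 6 groups. The genes were chosen for their likeness in these same data. That those beside Igf1 share its order of gated APP, gated TAU and the rest follows from this choice. Their span is smaller than that of Igf1.

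Markers of other cells were read beside these results. Summed markers of border macrophages, which also make growth factors, were at 12.15 to 12.55 in gated APP, 13.63 to 15.03 in gated TAU and 14.31 to 15.04 in aged WT samples (log2), with Cd163, Lyve1, F13a1, Cbr2 and Siglec1 at background in gated APP cells. In that list of 10 genes, Mrc1, Ms4a7 and Stab1 were called lower in gated APP than in gated TAU cells and none higher, where 0.302% of probe sets were called lower. Against aged WT cells, Folr2 was called higher and Cbr2 and Stab1 lower in gated APP, and Ms4a7 was called higher and Stab1 lower in gated TAU cells. All 7 monocyte markers were at background in gated APP, gated TAU and aged WT cells. All 9 neutrophil markers were at background in both gated groups and 8 of 9, S100a8 among them, in aged WT cells. Their sums were 9.26 to 9.32 in gated APP, 9.22 to 9.55 in gated TAU and 9.58 to 11.53 in aged WT samples. S100a8 was called lower in each gated group than in aged WT cells, with all these groups at background. Fibroblast markers summed to 9.73 to 10.28 in gated APP, 9.72 to 10.25 in gated TAU and 9.75 to 10.18 in aged WT samples, with Dcn, Col1a2, Col3a1 and Lum at background. In that list Slc6a13 was called lower in gated TAU than in aged WT cells, with both groups at background. Of 6 dendritic cell markers 5 were at background in each of the 3 groups. Cd209a, among those 5, was called lower in gated APP than in aged WT cells. No neuron or oligodendrocyte marker was called between these groups. T, NK and B cell markers summed to 9.58 to 9.91 in gated APP, 10.25 to 10.67 in gated TAU and 9.81 to 10.36 in aged WT samples. In that list Klrb1c was called higher in gated TAU and Gzmb lower in gated APP than in aged WT cells. Endothelial and pericyte markers summed to 10.29, 12.22, 11.27 and 10.54 in gated APP samples. Their sums were 10.14 to 10.36 in gated TAU and 10.45 to 10.90 in aged WT samples. Of these 10 genes 8 were at background in gated APP cells. Flt1 was called higher and Pecam1 lower in gated APP than in aged WT cells. Flt1 was also called higher in gated APP than in gated TAU cells, where 0.626% of probe sets were called higher. The part of these endothelial and pericyte genes in the differences of the 3 genes was not tested.

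No receptor of the 3 ligands was called higher in gated cells than in aged WT cells. Csf1r had log2 signals of 17.62, 17.62, 17.45 and 17.50 in gated APP, 17.62, 17.52, 17.59 and 17.62 in gated TAU, and 18.38, 18.20, 18.38 and 18.10 in aged WT samples, so that every gated sample was below every WT sample. It fell by 0.72 in gated APP and by 0.68 in gated TAU cells relative to aged WT (SE 0.14 each, limma adjusted p = 0.00114 and 0.00257), where 3.48% and 3.67% of probe sets were called lower. Relative to its own strain at 3 months it fell by 0.91 in APP and by 0.75 in TAU (adjusted p = 0.000178 and 0.000609), where 5.95% and 6.81% of probe sets were called lower. Il34, the other ligand of Csf1r, was at 8.0, 7.84 and 7.62 in gated APP, gated TAU and aged WT cells and did not pass the test. It was at background in gated TAU and aged WT cells and little above the background level of 7.77 in gated APP cells. Csf2 and Csf3, which encode the granulocyte-macrophage and granulocyte colony-stimulating factors, were at background in all 3.

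On the IGF side, the probe set of Igf1r was at background in gated APP, gated TAU and aged WT cells (7.34, 6.51 and 6.86), as were Igf2 and the scavenging receptor Igf2r, and none of the 3 was called between these groups. Relative to 3 months Igf1r was called lower in TAU (-0.88, limma adjusted p = 0.0204), with both groups at background. The insulin receptor Insr was measured above background at 10.41, 10.28 and 10.92 in the same groups, a difference that did not pass the test (adjusted p = 0.313 and 0.190). Relative to 3 months Insr fell by 1.61 in APP and by 1.20 in TAU (limma adjusted p = 0.000902 and 0.00597). Igfbp4, a binding protein that restrains IGF action, had 7.89, 8.38, 8.08 and 8.65 in gated APP and 8.75, 9.26, 8.74 and 9.30 in aged WT samples. Igfbp4 was lower by 0.76 ± 0.18 in gated APP than in aged WT cells (limma adjusted p = 0.00868), while the gated TAU difference of -0.39 had an adjusted p of 0.218. At 3 months it was at 8.45 ± 0.24 in APP, 8.93 ± 0.17 in TAU and 8.98 ± 0.22 in WT cells (SD). The gated APP mean of 8.25 ± 0.33 was thus near the level of young APP cells. Igfbp5 was 1.33 higher in gated APP than in aged WT cells (adjusted p = 0.0095), but both groups were at background and overlapped, and the call was lost without gated APP sample 3 (adjusted p = 0.0517).

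Over the list of 38 genes of the IGF system other than Igf1, 35 were measured, and in gated APP cells 1 was higher (Igfbp5) and 1 lower (Igfbp4) than in aged WT cells, against 5.6% higher and 3.48% lower over all probe sets. The median log2 difference was 0.02, against -0.06 over all probe sets. In gated TAU cells none was higher (5.09% over all probe sets) and Pik3r1, a regulatory subunit of phosphoinositide 3-kinase, was lower by 0.96 (adjusted p = 0.0375); that call was lost in 6 of 8 fits that left out 1 sample, with adjusted p up to 0.113. The gene Pdk1, here pyruvate dehydrogenase kinase 1 and not the kinase of the insulin pathway, was called higher in gated APP than in gated TAU cells, at least 1.97-fold since the TAU level was at background. Between 22 and 24 of the 35 genes were at background in both groups of these comparisons. Relative to 3 months none of the 35 was called higher, and 2 were lower in APP and 4 in TAU. Over all probe sets 6.19% were higher and 5.95% lower in APP, and 6.67% and 6.81% in TAU. Pik3r1 was at 12.99, 13.37 and 12.69 in APP, TAU and WT cells at 3 months. It was at 11.32, 11.26 and 12.22 in gated APP, gated TAU and aged WT cells.

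Of 27 measured genes of the colony-stimulating factor system other than Csf1, 5 were higher and 3 lower in gated APP cells than in aged WT cells (median 0.14), and 5 were higher and 2 lower in gated TAU cells (median -0.02). Over all probe sets 5.6% were higher and 3.48% lower in gated APP, and 5.09% higher and 3.67% lower in gated TAU cells. Tyrobp, the signalling adaptor of Trem2, was 1.31 higher in gated APP and 1.08 higher in gated TAU cells (limma adjusted p = 2.29e-05 and 0.00033). Csf2ra, the GM-CSF receptor subunit, was 1.40 higher in each, or at least 1.16-fold since the WT level was at background. The interleukin 3 receptor subunit Il3ra was 1.27 higher in gated APP and 1.03 higher in gated TAU cells (adjusted p = 0.00161 and 0.0112), and the TAU call was lost without gated TAU sample 3 (adjusted p = 0.0510). The transcription factor Mitf, which acts downstream of CSF1 in osteoclasts, was 0.84 higher in gated APP and 1.20 higher in gated TAU cells. The APP call for Mitf was lost in 4 of 8 fits that left out 1 sample, as was that for the phosphatase Ptpn6 (1.14 higher, adjusted p = 0.0249). Besides Csf1r, the lower genes were the phosphatase Inpp5d, by 0.84 in gated APP and 0.83 in gated TAU cells, and the ubiquitin ligase Cbl, which was 0.93 lower in gated APP cells. Inpp5d, Cbl and the subunit Csf2rb (0.77 higher in gated TAU cells, call lost in 7 of 8 such fits) were named after their values were seen. No gene of the list was called between gated APP and gated TAU cells in limma, and 3 had an unadjusted p under 0.05.

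**Figure D4:**
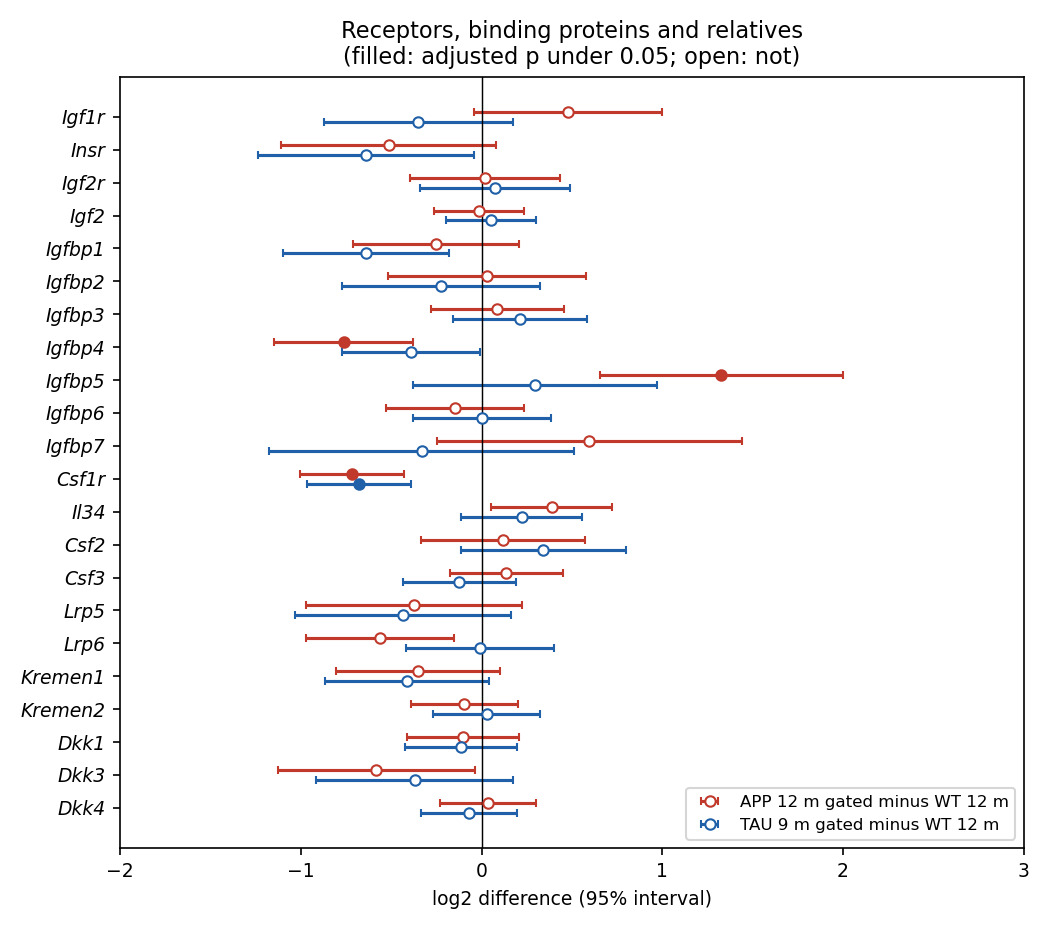
Log2 differences from aged WT cells, with 95% intervals, for receptors, binding proteins and relatives of Igf1, Csf1 and Dkk2 in gated APP (red) and gated TAU (blue) cells. Filled points had an adjusted p under 0.05: Csf1r in both groups, and Igfbp4 and Igfbp5 in gated APP cells.

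The partners of Dkk2 were mostly dim. Dkk1, Dkk3, Dkk4, Kremen1 and Kremen2 were at background in gated APP, gated TAU and aged WT cells, and none was called in either gated group against aged WT cells. The co-receptor Lrp5 had 9.18, 9.11 and 9.55 and Lrp6 had 9.68, 10.23 and 10.24 in these groups, with no call against aged WT. Relative to 3 months, Lrp5 fell by 0.96 in APP and by 1.12 in TAU (limma adjusted p = 0.0458 and 0.0106), and Lrp6 fell by 1.05 in APP (adjusted p = 0.00147). Kremen1 was called lower in gated TAU than in TAU cells at 3 months (adjusted p = 0.0193), at least 1.04-fold since the gated level was at background.

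Of 68 measured Wnt pathway genes other than Dkk2, 1 was higher and 2 lower in gated APP than in aged WT cells (median -0.07), and 1 was higher and 1 lower in gated TAU cells (median -0.06), shares at or under the 5.6% and 3.48% of all probe sets for APP and the 5.09% and 3.67% for TAU. Relative to 3 months none was higher and 7 lower in APP, and 1 was higher and 7 lower in TAU, against 6.19% and 5.95% of all probe sets for APP and 6.67% and 6.81% for TAU. Between 53 and 55 of them were at background in both groups of the comparisons with aged WT. The receptor Fzd7 was 1.02 higher in gated APP cells (adjusted p = 0.00247, at least 1.01-fold above a WT level at background). The Wnt effector Tcf7l2 fell by 1.29 in gated APP and by 1.18 in gated TAU cells (adjusted p = 0.019 and 0.0357), to background in both, or at least 1.78-fold and 1.85-fold lower than in aged WT cells. These Tcf7l2 calls against aged WT were lost in 4 and 5 of 8 fits that left out 1 sample. Its distance from 3 months was larger, from 9.07 to 11.12 in young APP samples to 7.09 to 8.10 in gated APP samples. In TAU it went from 9.44 to 9.95 at 3 months to 7.33 to 7.81 in gated samples. WT means were 9.30 at 3 months and 8.80 at 12 months. The scaffold gene Apc was 0.82 lower in gated APP than in aged WT cells (limma adjusted p = 0.0176). Its means were 10.12 in APP and 9.93 in WT cells at 3 months, against 8.58 in gated APP and 9.40 in aged WT cells. The call against aged WT was lost in fits without gated APP sample 4 or aged WT sample 1 (adjusted p up to 0.086). Wif1, a secreted Wnt inhibitor, was 0.58 higher in gated TAU cells, with both groups at background, and the call was lost in 5 of 8 such fits (adjusted p up to 0.111). None of the 68 was called between gated APP and gated TAU cells in limma, and 2 had an unadjusted p under 0.05.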

How the data were processed

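Total RNA (5 ng) was extracted with TriPure and biotin-labelled with a 3′IVT Pico kit, per the labels' protocols. The authors deposited 1 log2 signal per probe set and sample, made with RMA in the Transcriptome Analysis Console, per the submitters' processing notes. This method subtracts background, brings the arrays to a common distribution and combines the probes of each set; versions, filters and the genome build of the probe sets are not given in the sources used here. The 23 arrays had medians of 6.87 to 7.13 and SDs of 2.40 to 2.60, no 2 samples were identical, and the number of arrays limits the precision. Symbols came from the platform annotation, and 2631 of 22203 probe sets had none.

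The values were used as deposited. A linear model with 1 mean per group was fitted to all 23 samples with limma 3.58.1 under R 4.3.3 and moderated by eBayes with no trend (5.11 prior and 17 residual degrees of freedom). Each of 11 contrasts was two-sided, with Benjamini-Hochberg adjustment over 22203 probe sets and a threshold of 0.05. The scripts were tested on simulated data. Groups were also compared by exact permutation. For a gene with several probe sets, the brightest was used in lists. A fold against a group at background was given as a bound or not at all; the bound set the brighter mean against the mean, over the dim group's samples, of the higher of the sample's own receptor percentile and the gene's signal. Likeness of profiles was the root mean square difference over 6 centred group means. Y-linked genes, array scaling, weights, moderation, a filter on dim probe sets, a replicate block, the omission of single samples and that of 2 aged WT samples were tried as alternatives. Same-numbered samples of gated APP and gated TAU had correlated deviations (0.18 to 0.42 in 4 pairs), and the labels state no pairing. In 1 of 15 pairs of groups, this one, every correlation was over 0.1 (-0.52 to 0.55 over 55 pairs of samples). As 28 of the 55 were over 0.1, this does not show that the numbers are pairs. Values come from the fit without pairs unless the block is named. Genes named were the 3 members, fixed receptors and relatives, up to 4 called genes of largest difference per list and gated comparison, 5 genes most like each member, and fixed markers. The members and lists were chosen with earlier results of these data known. Promoter windows came from RefSeq (GRCm38.p6). Proteins were not analysed here.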

Additional observations from a re-analysis of the deposited data

Results flagged for a closer look

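In 2 groups of 4, 1 sample stood apart in Csf1. In gated TAU cells sample 3, at 16.63, was below the other samples at 17.22 to 17.29, and the gap made up 0.894 of the group's range. In WT cells at 3 months sample 4, at 14.24, was above the others at 13.53 to 13.64, with a gap of 0.845 of the range. Chance marks about 1 in 20 groups, and 15 groups of 4 were looked at over the 3 genes.

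The changes between ages differed between strains in limma. For Igf1 the change in APP exceeded that in WT by 7.75 log2 units, the change in TAU exceeded that in WT by 4.22, and the change in APP exceeded that in TAU by 3.53. For Csf1 the excess over WT was 2.94 in APP and 3.95 in TAU. For Dkk2 the change in APP exceeded that in WT by 2.24 and that in TAU by 1.95. The aged transgenic cells were sorted for Clec7a and the other cells were not, so that in these terms age, genotype and sort cannot be told apart.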

How the results depend on the processing

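Every call of the 3 genes kept its direction and its side of the threshold in all alternatives run. Igf1 ranged over 7.74 to 8.04 in gated APP minus aged WT, 3.90 to 4.47 in gated TAU minus aged WT and 3.45 to 4.02 in gated APP minus gated TAU, and Dkk2 over 2.46 to 2.84 and 2.17 to 2.48 in the first and last of these. Csf1 ranged over 3.27 to 3.87 in gated APP and 3.35 to 3.95 in gated TAU minus aged WT. With the replicate block the APP values were 7.92, 3.64 and 2.62 for Igf1, Csf1 and Dkk2, and no call of these genes changed. In gated APP minus gated TAU the block gave 3.67, -0.07 and 2.26 with 224 probe sets called (206 without it). The calls of Pdk1, Gas6, Gfap, Mrc1, Ms4a7 and Stab1 in that comparison were kept. A covariate for Y-linked signal gave 7.92, 3.71 and 2.65. The filter on dim probe sets left 9112, Dkk2 among them. Dkk2 was above background only in gated APP cells, the group where it was high, so its passing the filter adds no support to its difference.

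Of 603 alternative values of the 3 genes, 15 turned sign, none of them in a called comparison; the cause was not tested. Igf1 in TAU minus WT at 3 months was -0.010 with arrays centred and -0.041 with array weights, where Dkk2 was -0.094. Dkk2 in aged minus young WT was -0.010 after quantile normalization. Without aged WT samples 2 and 4, aged minus young WT was 0.07 for Igf1 and -0.12 for Dkk2. Leaving out single samples gave -0.074 to 0.116 for Igf1 and -0.092 to 0.288 for Dkk2 in young TAU minus WT, -0.129 to 0.061 and -0.057 to 0.232 in aged minus young WT, and -0.238 to 0.072 for Csf1 in gated APP minus gated TAU.

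Numbers of called probe sets moved more. With only the groups compared in the fit, 1326 (2015 in all groups) were called in gated APP minus aged WT, 1218 (1946) in gated TAU minus aged WT, 120 (206) in gated APP minus gated TAU, 93 (0) in young APP minus WT and 5 (8) in aged minus young WT. Without aged WT samples 2 and 4 the first pair gave 1264 and 1227, and aged minus young WT gave 1. That comparison gave 3 with arrays centred, 4 after quantile normalization, 13 with array weights and 0 to 88 when 1 sample was left out, with 88 without aged WT sample 3. Array weights gave 8 in young APP minus WT and 4079 (2695) in gated APP minus young APP, where leaving out 1 sample gave 1643 to 2735, the lowest without young APP sample 2. Young TAU minus WT gave 0 to 1. Of 618 list counts and motif results, 75 moved by over 1.5 times. Dim signal limits Dkk2 most, since 5 of its 6 group means were at background.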

Other observations

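Other secreted growth factors were measured beside the 3 genes. Of 51 on the array, 4 were called higher in gated APP than in aged WT cells and none lower (median log2 difference 0.07), and 3 were higher and 2 lower in gated TAU cells (median 0.02). Over all probe sets 5.6% were higher and 3.48% lower in gated APP, and 5.09% and 3.67% in gated TAU cells. Vegfa, the vascular endothelial growth factor, had 14.57, 13.17, 13.67 and 13.89 in gated APP, 12.61, 13.53, 12.98 and 12.93 in gated TAU, and 11.08, 11.92, 10.93 and 11.67 in aged WT samples. Neither gated group overlapped WT, and Vegfa was 5.37-fold higher in gated APP and 3.06-fold higher in gated TAU cells (limma adjusted p = 8.41e-07 and 0.000283). Pdgfa, a platelet-derived growth factor chain, was 0.84 log2 units higher in gated APP and 1.26 higher in gated TAU cells, at least 1.13-fold and 1.52-fold above a WT level at background.

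Gas6, a ligand of the receptor tyrosine kinase Axl, had 7.94, 8.69, 8.47 and 8.21 in gated APP and 6.57, 5.52, 6.72 and 6.09 in gated TAU samples, which did not overlap. It was 2.10 log2 units higher in gated APP than in gated TAU cells (limma adjusted p = 0.000327), or at least 1.34-fold, since the TAU mean was at background. Against aged WT cells, with 7.51, 6.69, 8.06 and 6.84, both gated groups overlapped, and the calls of 1.05 in APP and -1.05 in TAU were each lost in 4 of 8 fits that left out 1 sample. Hgf, the hepatocyte growth factor, was 1.29 higher in gated TAU than in aged WT cells. Its difference in gated APP minus gated TAU was -1.315 (limma adjusted p = 0.00278). Fgf1 in gated APP cells was 0.74 above aged WT and 0.765 above gated TAU (adjusted p = 0.00427 and 0.018). Pdgfc was 1.075 higher in gated APP than in gated TAU cells (adjusted p = 0.0476). The calls of Fgf1 and Pdgfc over gated TAU were lost in 4 and 7 of 8 such fits. Flt3l was lower by 0.89 in gated TAU than in aged WT cells, but all these means were at background. Flt3l was named after its values were seen.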
